A study of Mus musculus with 9 samples.

Results

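Type I interferon-stimulated genes are the genes that cells switch on after sensing type I interferon, and 35 of them were followed here through the cell classes of the mouse liver before and after YAP induction. The members came from a list of names, and 34 were among the 27998 genes of the count table (Mx2 was not analysed here). Single liver cells of C57BL/6 mice had been profiled with droplet-based 3′ RNA-seq. The labels give 9 samples with 1 library each, and each was taken here as 1 mouse. All mice carried ROSA26-rtTA-IRES-EGFP, a doxycycline-dependent activator, and all ate doxycycline food. The 2 WT mice had no YAP transgene and received doxycycline for 7 days. The tetYAP mice received it for 3 days (YAP3d, 4 mice) or 7 days (YAP7d, 3 mice). According to the study's methods, the transgene codes for a constitutively active YAP and the activator depended on an albumin-driven Cre, so that YAP was meant to be induced in hepatocytes, while most cells in these libraries were immune and endothelial cells. The question asked of the data was in which of these cells, and at which time, the interferon-stimulated genes changed.

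Type I interferons are secreted by cells that detect foreign or misplaced nucleic acid. They bind the receptor IFNAR1/IFNAR2, which activates the kinases JAK1 and TYK2, and a complex that includes STAT2 and IRF9 then enters the nucleus and binds the interferon-stimulated response element in the promoters of its targets. The products include sensors of viral RNA, enzymes that degrade RNA or stop translation, the ubiquitin-like protein ISG15, and brakes such as USP18. Plasmacytoid dendritic cells are known as strong interferon producers, and resident macrophages and sinusoidal endothelium of the liver are known to respond to it.

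The core of the response element, GAAA, any 2 bases and GAAA again, on either strand (the other strand reads TTTC, 2 bases and TTTC), was searched in RefSeq promoters of build GRCm38.p6 that run from 250 bases before to 50 after the transcript start. A promoter was found for 26 members, and 14 of these (53.8%) held the motif. Over all 27025 genes with a promoter the share was 3.99%. The members with 2 or more matches before the start, whose runs of 250 bases are printed with the matches in capitals, were Isg15, Ifit1, Ifit3, Oas1a, Bst2 and Ddx60. The members were not chosen by this motif. They are known interferon targets, however, so its high share among them is not an independent result.
Isg15, chr4:156200819-156201068, minus strand: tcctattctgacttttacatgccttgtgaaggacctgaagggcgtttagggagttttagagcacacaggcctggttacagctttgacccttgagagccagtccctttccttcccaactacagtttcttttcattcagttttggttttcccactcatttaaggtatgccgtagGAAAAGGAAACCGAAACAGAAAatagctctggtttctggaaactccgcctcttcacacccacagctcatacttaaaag
Ifit1, chr19:34640639-34640888, plus strand: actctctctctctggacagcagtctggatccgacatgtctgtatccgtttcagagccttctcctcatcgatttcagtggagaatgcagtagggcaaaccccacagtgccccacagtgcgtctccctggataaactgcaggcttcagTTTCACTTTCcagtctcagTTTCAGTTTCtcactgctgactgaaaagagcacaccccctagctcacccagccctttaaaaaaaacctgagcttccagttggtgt
Ifit3, chr19:34583279-34583528, plus strand: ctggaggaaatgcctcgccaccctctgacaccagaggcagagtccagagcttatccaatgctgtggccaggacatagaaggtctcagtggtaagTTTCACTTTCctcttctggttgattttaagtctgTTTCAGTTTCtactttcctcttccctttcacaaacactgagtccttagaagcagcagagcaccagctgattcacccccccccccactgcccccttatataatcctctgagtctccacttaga
Oas1a, chr5:120907526-120907775, minus strand: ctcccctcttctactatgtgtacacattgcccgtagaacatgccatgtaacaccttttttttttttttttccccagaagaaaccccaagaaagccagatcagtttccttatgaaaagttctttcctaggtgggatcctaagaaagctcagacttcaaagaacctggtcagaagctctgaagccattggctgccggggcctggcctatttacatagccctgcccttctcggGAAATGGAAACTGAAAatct
Bst2, chr8:71537473-71537722, minus strand: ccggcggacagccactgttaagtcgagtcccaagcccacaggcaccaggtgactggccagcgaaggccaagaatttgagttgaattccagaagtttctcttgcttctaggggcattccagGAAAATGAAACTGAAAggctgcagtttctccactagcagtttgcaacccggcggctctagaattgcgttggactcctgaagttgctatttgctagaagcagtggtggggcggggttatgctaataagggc
Ddx60, chr8:61927837-61928086, plus strand: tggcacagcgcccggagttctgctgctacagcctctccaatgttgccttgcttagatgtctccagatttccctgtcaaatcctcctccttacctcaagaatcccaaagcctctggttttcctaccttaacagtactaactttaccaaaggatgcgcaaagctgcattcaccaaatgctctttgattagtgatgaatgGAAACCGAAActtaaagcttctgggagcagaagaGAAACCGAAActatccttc
Isg15 had 3 overlapping matches between 78 and 66 bases before the start, counted by the first base of each match. In Ifit1 and Ifit3 both matches lay apart on the opposite strand, at 104 and 85 and at 156 and 122 bases before the start. A match in these windows is a description of the letters and does not show binding.

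The libraries held 293 to 2554 cells and 1314878 to 25056881 UMIs, with a median of 3190.5 to 11471.5 UMIs per cell and the highest depth in YAP7d replicate 3. Leaving out 35 cells with fewer than 200 genes kept 8527 cells. Of all barcodes, 46 occurred in more than 1 library and covered 93 cells. Transcripts of the pseudogene Gm10709 divided the libraries in a way the labels do not give. They were at 3.65 and 11.0 CPM (UMIs scaled to a library total of 1000000) in WT, at 346.8, 427.6, 4.69 and 11.2 in YAP3d replicates 1 to 4 and at 362.5, 391.8 and 611.4 in YAP7d. WT lay wholly on the low side and YAP7d wholly on the high side, so for WT against YAP7d this division and the induction cannot be told apart within 2 groups. A class is named with the ending "-like" from markers, and a value for a class is the CPM of the UMIs summed over its cells in 1 library. UMIs were counted at the 3′ end, 1 tag per molecule, and were not divided by gene length.

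The summed level of the 34 members spanned a wide range over cell classes. Plasmacytoid-dendritic-like cells had 58.8, 62.3 and 80.5 member UMIs per 10000 UMIs as the lowest, median and highest of the 4 libraries with at least 10 such cells. Monocyte-like cells had 36.7, 61.3 and 91.4 (7 libraries), and in the 4 libraries shared by both they were the higher in WT replicate 2 and YAP7d replicate 1 and the lower in the other two. Macrophage-like cells had 36.3, 46.9 and 71.5 (9 libraries). Endothelial-like cells had 15.1, 33.1 and 47.0, T-cell-like cells 14.9, 24.3 and 38.1, and conventional-dendritic-like cells 15.4, 23.3 and 47.1. At the low end stood B-cell-like cells with 9.36, 13.9 and 28.5, hepatocyte-like cells with 5.16, 13.1 and 20.8 (6 libraries) and NK/ILC1-like cells with 9.40, 12.95 and 19.3, and cholangiocyte-like cells had 7.25 and 15.8 in the 2 libraries with at least 10 cells. Neighbours in this order overlapped in their ranges, and the macrophage-like range did not overlap that of the B-cell-like, hepatocyte-like or NK/ILC1-like cells. Neutrophil-like cells had 28.1, 29.1 and 120.0 over 4 libraries, and the highest value came from WT replicate 2 with 24 cells.

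**Figure D1:**
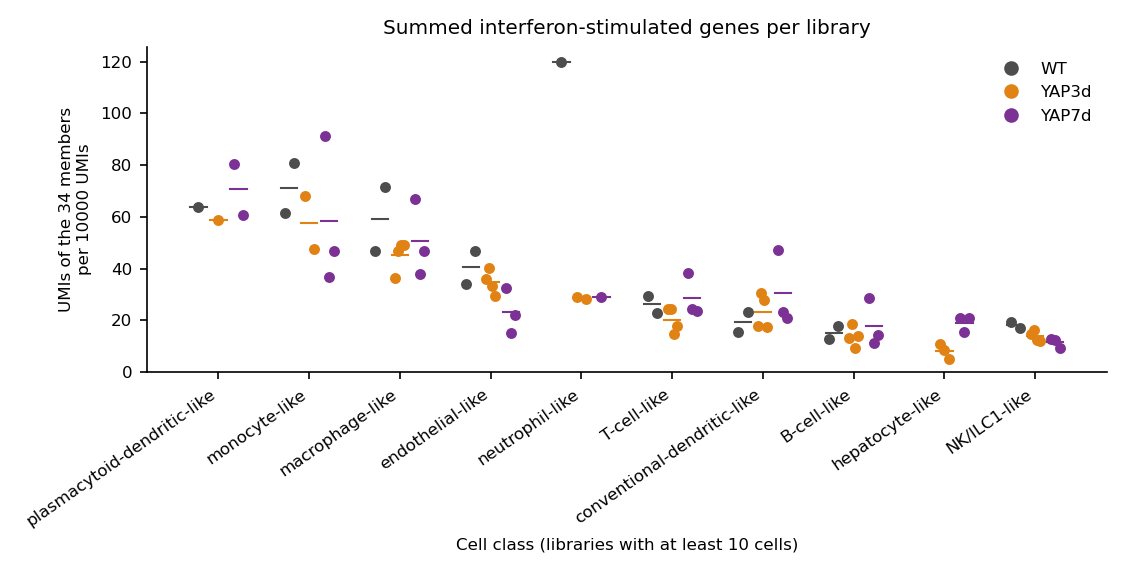
UMIs of the 34 members per 10000 UMIs (vertical axis) in 10 cell classes (horizontal axis), 1 point per library with at least 10 cells of the class, coloured by group, with a bar at the mean of a group. The medians over libraries were 62.3 in plasmacytoid-dendritic-like, 61.3 in monocyte-like and 12.95 in NK/ILC1-like cells. In endothelial-like and NK/ILC1-like cells every YAP7d library lay below both WT libraries.

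The order of libraries inside a group recurred over classes. In all 7 classes that could be tested, YAP7d replicate 1 had the highest summed level of the YAP7d libraries, and WT replicate 2 was above WT replicate 1 in 5 of 7. In 2 of the 7, endothelial-like and NK/ILC1-like, every YAP7d library was below both WT libraries.

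The order of classes differed from member to member. By the median over libraries, 7 of the 34 members were highest in monocyte-like cells, 6 in endothelial-like, 6 in plasmacytoid-dendritic-like, 5 in macrophage-like, 5 in neutrophil-like and 3 in T-cell-like cells, with 1 each in B-cell-like and NK/ILC1-like cells. Irf7, the transcription factor that amplifies interferon production, had medians of 520.2 CPM in plasmacytoid-dendritic-like, 416.9 in macrophage-like and 237.4 in monocyte-like cells, and of 121.3 CPM or less in each of the others. Bst2, which tethers budding virions and marks plasmacytoid dendritic cells in the mouse, had a median of 3768 CPM in plasmacytoid-dendritic-like cells and 1196 CPM in endothelial-like cells, and 653.6 CPM or less elsewhere. Ifi27l2a was highest in monocyte-like cells, with a median of 3084 CPM, and had 119.2 CPM in endothelial-like cells. Zbp1, a sensor of left-handed nucleic acid, was at 230.2 CPM in monocyte-like and 12.3 CPM in endothelial-like cells, while Rtp4 was at 207.7 CPM in endothelial-like and 6.45 CPM in plasmacytoid-dendritic-like cells. Endothelial-like cells led for Ifi44, Parp14, Rsad2, Xaf1, Cmpk2 and Ifit2.

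**Figure D2:**
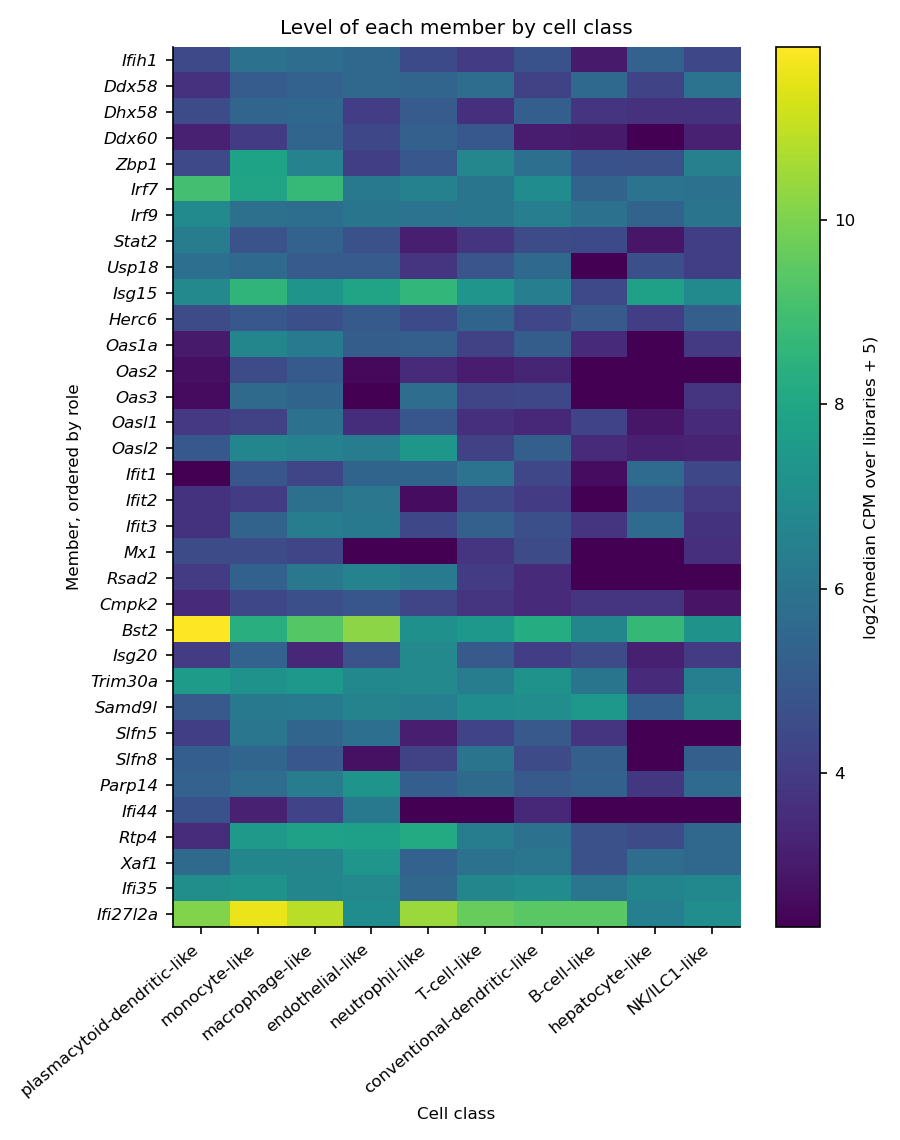
Level of each of the 34 members (rows, grouped by role) in 10 cell classes (columns), as log2 of the median CPM over libraries plus 5. The brightest cells are Bst2 in plasmacytoid-dendritic-like and Ifi27l2a in monocyte-like cells, and Irf7 is brightest in the plasmacytoid-dendritic-like and macrophage-like columns.

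In endothelial-like cells, between YAP7d and WT, 15 of the 28 members that passed the filter on low counts were lower at an adjusted p under 0.05 and 0 were higher. The background was 8.88% of all 7467 genes called lower. The members' median log2 fold change was -1.23, against -0.036 over all genes, and 26 of 28 lay below 0. By role, the members called lower were 2 of 4 tested sensors, 1 of 4 signal transducers, 1 of 2 in ISG15 conjugation, 2 of 2 oligoadenylate synthetase members, 2 of 3 IFIT genes, 5 of 6 other antiviral effectors, 1 of 2 in the pair of Rsad2 and its neighbour Cmpk2, and 1 of the remaining 5. At 3 days 0 of 28 were called against WT (0% of all genes were called in either direction), with a median of -0.39, which was -0.11 without WT replicate 2. Against YAP3d, 5 of 28 were lower in YAP7d, where 8.65% of all genes were, and the median was -0.81.

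These values compare different endothelial clusters. Of the 24, 23 and 64 endothelial-like cells in YAP7d replicates 1 to 3, 16, 16 and 58 lay in cluster 23. This cluster was led by Cldn5, Fabp4 and Pcdh17. WT had 0 and 2 of 276 and 503 cells there and filled clusters led by F8, by Ptprb and by Wnt2. Cluster 23 was split from a cluster with fibroblast markers. In it 18 of 19 endothelial and 8 of 12 fibroblast markers were raised. The 19 endothelial markers summed to 26610 to 29363 CPM in WT, 23876 to 27324 in YAP3d and 11779 to 12383 in YAP7d. The summed level of macrophage markers was 465 to 681, 357 to 1080 and 492 to 931 CPM in the same order, that of T cell markers 50 to 104, 14 to 102 and 0 to 33 CPM. The part of this shift in the members' change was not tested.

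Among the effectors, Isg20, an exonuclease that degrades single-stranded RNA (chr7:78913396-78920396), had 36.7 and 37.5 CPM in WT, 31.2, 27.7, 14.3 and 22.6 CPM in YAP3d and 4.52, 0 and 5.57 CPM in YAP7d. The YAP7d values rest on 1, 0 and 5 UMIs, where a count of 0 allows up to 13.5 CPM, and all lay below every YAP3d and WT library. Isg20 fell with a log2 fold change of -2.99 (SE 0.518, adjusted p 0.000356) against WT and of -2.26 (SE 0.530, adjusted p 0.00539) against YAP3d. Trim30a, a TRIM-family regulator of innate signalling (chr7:104409025-104465193), had 141.9 and 127.7 CPM in WT, 97.1, 106.1, 130.7 and 104.7 CPM in YAP3d and 49.7, 58.6 and 37.9 CPM in YAP7d. Its YAP7d libraries did not overlap either other group, with log2 fold changes of -1.51 (SE 0.248, adjusted p 0.000214) against WT and -1.21 (SE 0.233, adjusted p 0.00109) against YAP3d. Parp14, an ADP-ribosyltransferase (chr16:35831892-35871518), had 191.5 and 148.4 CPM in WT, 149.2, 175.3, 148.6 and 105.5 CPM in YAP3d and 90.3, 54.1 and 36.8 CPM in YAP7d, and again the YAP7d libraries were the lowest. Its log2 fold change was -1.61 (SE 0.288, adjusted p 0.000485) against WT and -1.30 (SE 0.271, adjusted p 0.00207) against YAP3d. Isg20, Trim30a and Parp14 were the 3 of the 15 members that stayed called against WT whichever library was left out.

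Slfn5, a Schlafen-family gene (chr11:82951349-82964850), had 95.8 and 75.1 CPM in WT, 86.7, 50.8, 107.4 and 46.5 CPM in YAP3d and 27.1, 40.6 and 14.5 CPM in YAP7d. It fell by 1.85 on the log2 scale against WT (SE 0.410, adjusted p 0.00375) and by 1.57 against YAP3d (SE 0.396, adjusted p 0.00987). Samd9l, an antiviral inhibitor of translation (chr6:3372257-3399571), had 132.4 and 104.0 CPM in WT, 100.6, 92.3, 107.4 and 71.3 CPM in YAP3d and 58.7, 76.7 and 29.0 CPM in YAP7d. Here YAP7d replicate 2 overlapped the lowest YAP3d library, and the changes were -1.27 (SE 0.308, adjusted p 0.00657) against WT and -0.87 (SE 0.293, adjusted p 0.0450) against YAP3d. Bst2, the most abundant member in this class, had 1196 and 1803 CPM in WT, 1374, 1606, 1193 and 1152 CPM in YAP3d and 1341, 617.8 and 1035 CPM in YAP7d. The groups overlapped, and its log2 fold change was -0.55 (SE 0.264, adjusted p 0.176).

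**Figure D3:**
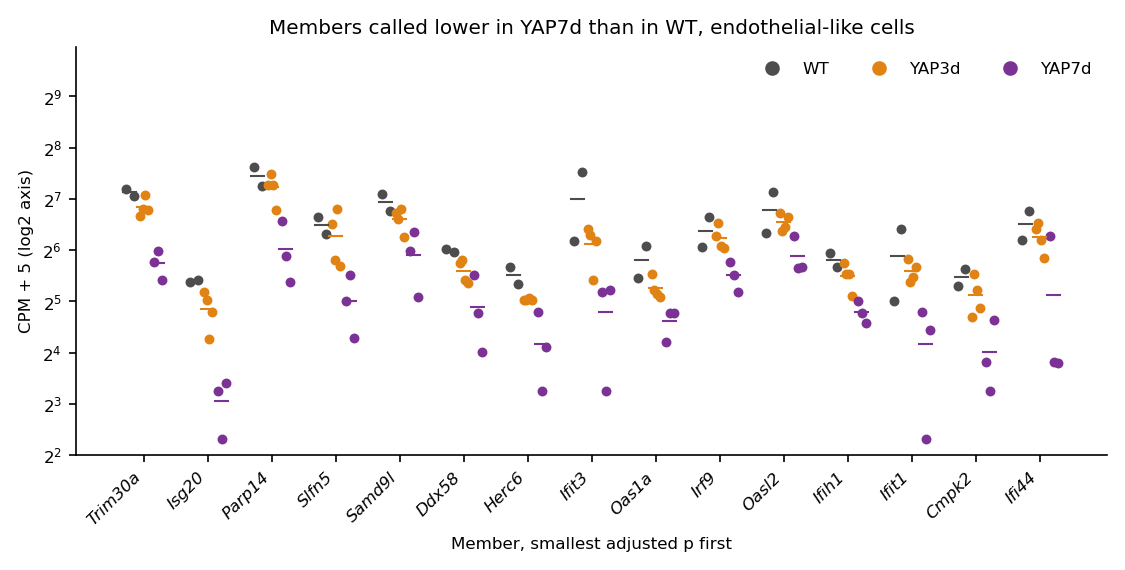
CPM plus 5 on a log2 axis (vertical) for the 15 members that were lower in YAP7d than in WT in endothelial-like cells (horizontal, smallest adjusted p first), 1 point per library, bars at group means. For every member but Samd9l, Ddx58 and Ifi44 the 3 YAP7d libraries lie below all libraries of both other groups. For Isg20, Trim30a and Parp14 the YAP3d libraries lie between YAP7d and WT or with WT.

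Of the sensors, Ddx58, which codes for the RNA sensor RIG-I (chr4:40203777-40239825), had 60.3 and 57.4 CPM in WT, 48.6, 50.8, 37.6 and 36.3 CPM in YAP3d and 40.6, 22.5 and 11.1 CPM in YAP7d. It was lower in every YAP7d library than in WT (log2 fold change -1.52, SE 0.378, adjusted p 0.00757), and YAP7d replicate 1 overlapped YAP3d. Ifih1, which codes for the RNA sensor MDA5, ran from 46.2 to 56.8 CPM in WT and from 18.9 to 27.1 CPM in YAP7d (log2 fold change -1.19, adjusted p 0.0183). Zbp1 had 8.28 and 14.2 CPM in WT, 10.4, 27.7, 16.1 and 8.34 CPM in YAP3d and 27.1, 4.51 and 12.3 CPM in YAP7d. The groups overlapped for Zbp1, with a log2 fold change of 0.26 and an adjusted p of 0.816.

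Among the signal transducers, Irf9, the DNA-binding subunit of the complex that reads the response element, had 61.5 and 95.3 CPM in WT, 72.9, 87.7, 62.7 and 60.5 CPM in YAP3d and 49.7, 40.6 and 31.2 CPM in YAP7d. All YAP7d libraries were the lowest, and the log2 fold change against WT was -1.04 (adjusted p 0.0165). Its partner Stat2 had 28.4 and 31.5 CPM in WT, 3.47, 9.23, 35.8 and 20.7 CPM in YAP3d and 18.1, 22.5 and 12.3 CPM in YAP7d, with YAP7d below both WT libraries, YAP3d overlapping both groups and a log2 fold change against WT of -0.89 (adjusted p 0.229). Irf7 had 53.2 and 110.0 CPM in WT, 62.4, 69.2, 68.0 and 63.2 CPM in YAP3d and 85.8, 36.1 and 70.2 CPM in YAP7d. Its log2 fold change was -0.31 with an adjusted p of 0.528, and the groups overlapped. Usp18, which removes ISG15 from proteins and blocks IFNAR2, had 28.4 and 46.2 CPM in WT, 41.6, 32.3, 26.9 and 24.2 CPM in YAP3d and 36.1, 9.02 and 13.4 CPM in YAP7d (log2 fold change -1.11, adjusted p 0.0749).

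Isg15, the ubiquitin-like modifier, had 262.5 and 398.6 CPM in WT, 232.4, 276.9, 195.2 and 225.7 CPM in YAP3d and 325.2, 36.1 and 71.3 CPM in YAP7d. The YAP7d libraries split, with replicate 1 among the WT values and the other two below all libraries, and the change of -1.31 (SE 0.693, adjusted p 0.258) was not called. Herc6, the ligase that conjugates ISG15 in the mouse (chr6:57580992-57665136), had 46.1 and 35.8 CPM in WT, 27.8, 27.7, 28.7 and 27.4 CPM in YAP3d and 22.6, 4.51 and 12.3 CPM in YAP7d. Its YAP7d libraries lay below both other groups, with a log2 fold change of -1.59 against WT (SE 0.40, adjusted p 0.00833).

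In the IFIT family, whose proteins bind viral RNA ends, Ifit3 (chr19:34583119-34588982) had 67.4 and 178.6 CPM in WT, 79.8, 73.8, 37.6 and 67.8 CPM in YAP3d and 31.6, 4.51 and 32.3 CPM in YAP7d. It was lowest in the YAP7d libraries and highest in WT replicate 2 (log2 fold change -2.21, SE 0.511, adjusted p 0.0115). Ifit3b, a near-identical copy that is no member, also fell (log2 fold change -2.62, adjusted p 0.000304), and how shared reads were split between the copies is uncertain. Ifit1 fell by 1.90 on the log2 scale (adjusted p 0.0195), from 27.2 and 80.7 CPM in WT to 22.6, 0 and 16.7 CPM in YAP7d.

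Of the oligoadenylate synthetase family, which makes the messenger that activates RNase L, Oasl2 had 75.7 and 136.3 CPM in WT, 100.6, 78.4, 82.4 and 94.7 CPM in YAP3d and 72.3, 45.1 and 45.7 CPM in YAP7d. Its YAP7d libraries lay just below all others, with a log2 fold change of -1.01 (adjusted p 0.0171), and Oas1a fell by 1.29 (adjusted p 0.0134). Cmpk2, a mitochondrial nucleotide kinase, fell by 1.38 (adjusted p 0.0248), and its neighbour Rsad2, which codes for viperin, ranged from 85.1 to 113.9 CPM in WT and from 49.6 to 114.8 CPM in YAP7d. Ifi44 fell by 1.95 (adjusted p 0.0390), but YAP7d replicate 1 had 72.3 CPM, inside the WT to YAP3d range. Rtp4 had 216.4 and 286.4 CPM in WT, 256.7, 281.5, 195.2 and 157.7 CPM in YAP3d and 207.7, 49.6 and 93.6 CPM in YAP7d (log2 fold change -1.13, adjusted p 0.0710). Ifi27l2a had the opposite sign, with 35.5 and 105.7 CPM in WT, 48.6, 184.6, 145.1 and 119.2 CPM in YAP3d and 158.1, 103.7 and 196.2 CPM in YAP7d, and its log2 fold change of 1.14 was not called (SE 0.554, adjusted p 0.208). The 6 members below the filter, Oasl1, Oas2, Oas3, Mx1, Dhx58 and Slfn8, were at 24.3 CPM or less in every library. Mx1, which the reference annotates as a transcribed pseudogene, had 0 and 10 UMIs in WT, 0, 0, 0 and 5 in YAP3d and 0, 0 and 1 in YAP7d.

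The endothelial-like result depended on libraries. Without YAP7d replicate 3, 6 members were lower, and without WT replicate 2, 8 were lower and Ifi27l2a was higher. Against YAP3d, 2 were lower without YAP7d replicate 3 and 9 were called without YAP7d replicate 1. With a term for the libraries high in Gm10709, Isg20 and Parp14 remained of the 15 and the median was -1.53. Other lists moved in the same cells. Of 41 proliferation genes tested, 36 were higher in YAP7d than in WT, where 9.56% of all genes were higher, and their summed level was 1746 to 2253 CPM in WT, 2056 to 3635 in YAP3d and 5714 to 7393 in YAP7d. Of 13 stress and dissociation genes 10 were lower (8.88% of all genes), with summed levels of 7656 to 10057, 6461 to 8463 and 2615 to 3003 CPM. Among endothelial-like cells with a proliferation score under 0.4, 13 of 27 members tested were lower in YAP7d than in WT (6.13% of all genes), with a median of -1.21. Of these, 11 were among the 15, Rtp4 and Usp18 were not, and Cmpk2, Ifih1, Ifit1 and Irf9 were no longer called. The part of the stress genes was not tested.

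The rest of the interferon pathway in endothelial-like cells is read against 8.88% of all genes lower and 9.56% higher in YAP7d than in WT. Of the 21 interferon genes listed as ligands, Ifng had 110 to 849 UMIs per library over all cells. Ifna2 had 5 UMIs, all in YAP3d replicate 4, Ifna16 had 1 and Ifnz 2, and the other type I and type III interferon genes had 0. The receptor genes Ifnar1 (27.2 and 29.6 CPM in WT, 27.1 to 58.6 in YAP7d) and Ifnar2 (144.2 and 160.9 in WT, 85.7 to 132.6 in YAP7d) were not called, at adjusted p of 0.406 and 0.287. Of 17 receptor and signalling genes tested, 4 were lower and 1 higher. Irf1, an interferon-gamma responsive transcription factor, fell by 1.13 on the log2 scale (adjusted p 0.000543), and Irf8 rose by 1.51 (adjusted p 8.68e-05), from 73.3 and 83.7 CPM in WT to 198.7, 239.0 and 218.4 CPM in YAP7d. Of 42 other interferon-stimulated genes tested, 11 were lower and 1 higher, with a median of -0.65. Ifitm2, which restricts virus entry, was at 5604 and 5951 CPM in WT and 2822, 3076 and 2832 CPM in YAP7d. Of 11 interferon-gamma GTPases 9 were lower, with a median of -1.63, among them Irgm2 (log2 fold change -2.84) and Ifi47 (-1.73), both immunity-related GTPases. Of 9 other sensors and adaptors 4 were lower (Ifi203, Ifi204, Tlr3 and Mavs).

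**Figure D4:**
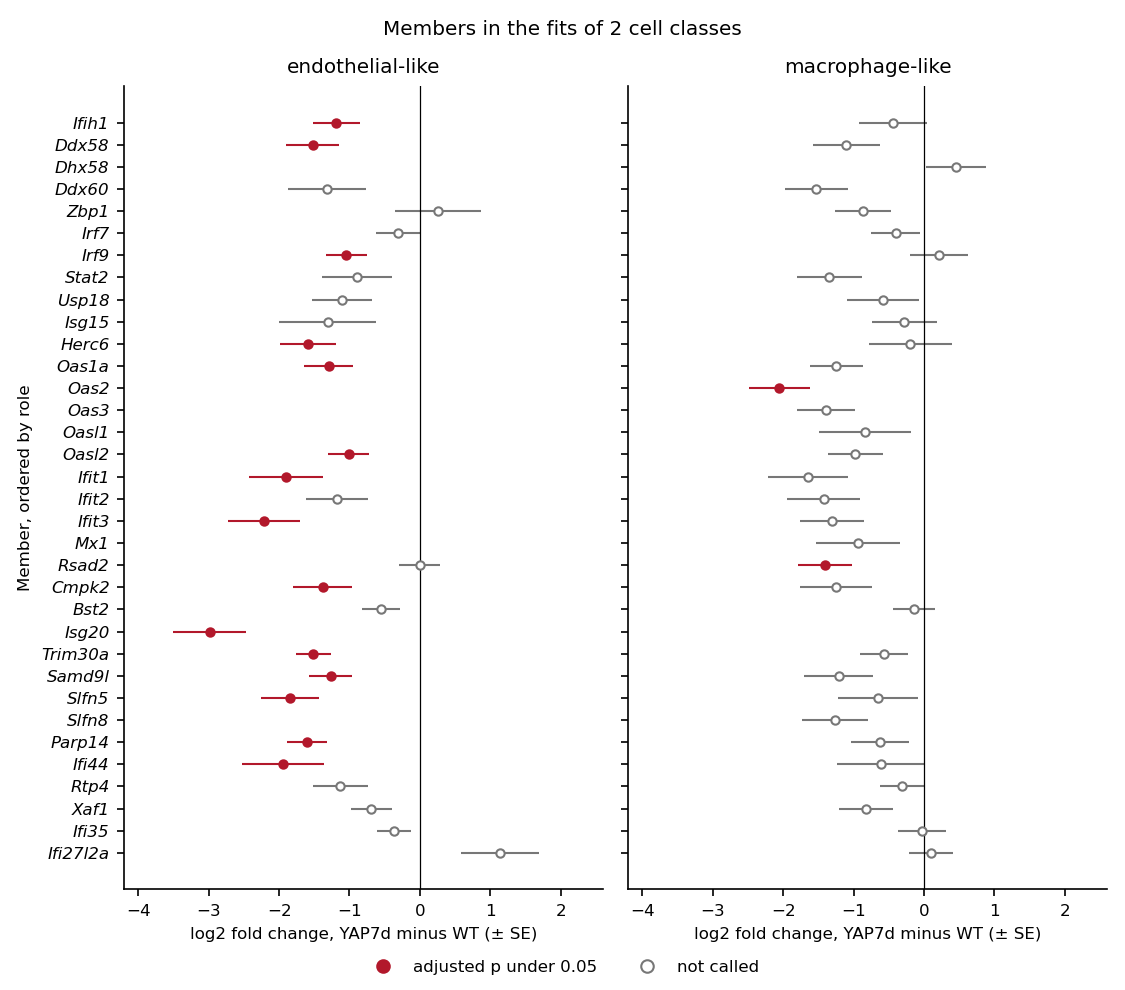
Log2 fold change of YAP7d minus WT with its SE (horizontal axis) for each tested member (vertical axis, grouped by role) in endothelial-like (left) and macrophage-like cells (right). Filled points passed an adjusted p under 0.05, 15 on the left and 2 on the right, and most open points on both sides lie below 0.

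In macrophage-like cells 2 of 33 members tested were lower in YAP7d than in WT, with 1.52% of all genes lower as background, and 0 were higher (1.26% of all genes). At an unadjusted p under 0.05 there were 16, against 18.1% of all genes in either direction. The members' median log2 fold change was -0.84, against 0.027 over all genes, and 30 of 33 lay below 0. Without WT replicate 2 the median was -0.081 and 0 members were called, so the shift rests on that library. The count was also 0 without WT replicate 1, without YAP7d replicate 2 or with a term for the libraries high in Gm10709, which moved the median toward 0. Oas2 (chr5:120730333-120749886) had 76.5 and 66.9 CPM in WT, 0, 27.7, 35.5 and 38.7 CPM in YAP3d and 20.1, 14.9 and 16.3 CPM in YAP7d. WT lay above all other libraries, and the log2 fold change was -2.06 (SE 0.433, adjusted p 0.0187). Rsad2 (chr12:26442743-26456452) had 114.8 and 135.7 CPM in WT, 103.3, 36.9, 44.4 and 72.2 CPM in YAP3d and 65.6, 52.9 and 33.7 CPM in YAP7d, a log2 fold change of -1.41 (SE 0.380, adjusted p 0.0487).

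The abundant members of macrophage-like cells overlapped between the groups. Irf7 had 369.9 and 698.2 CPM in WT, 309.9, 219.5, 514.8 and 478.8 CPM in YAP3d and 489.0, 380.2 and 416.9 CPM in YAP7d (log2 fold change -0.40, adjusted p 0.592). Isg15 had 153.1 and 326.5 CPM in WT, 86.1, 147.6, 150.9 and 179.6 CPM in YAP3d and 395.8, 132.6 and 135.9 CPM in YAP7d (log2 fold change -0.28, adjusted p 0.806). Its YAP7d replicate 1 was the highest of all 9 libraries. Bst2 ran from 599.5 to 853.5 CPM in WT and from 503.2 to 894.2 CPM in YAP7d, and Ifi27l2a from 1556 to 2425 and from 1443 to 2844 CPM. At 3 days 0 members were called (0% of all genes), and between YAP7d and YAP3d 0 were (0.334% of all genes), with medians of -0.80 and -0.21. The 3-day median was -0.011 without WT replicate 2, and the other was -0.034 without YAP3d replicate 4. Of the interferon-gamma GTPases 8 of 14 were lower in YAP7d than in WT (1.52% of all genes), with a median of -1.93. The macrophage-like cells of WT and YAP7d were spread differently over 3 clusters. Cluster 13, with Kupffer cell markers, held 52 of 96 WT and 0 of 787 YAP7d cells, cluster 15, also with them, held 32 WT and 376 YAP7d cells, and cluster 21, without them, held 12 WT and 411 YAP7d cells. The summed level of proliferation genes was 2347 and 1937 CPM in WT and 5884 to 6505 CPM in YAP7d, and that of stress and dissociation genes 4822 and 10569 CPM in WT and 3812 to 4118 CPM in YAP7d. Their part in the members' change was not tested. Within the Kupffer-marked clusters 1 of 32 members tested was lower, with 57 of all 5702 genes (1.0%) lower.

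NK/ILC1-like cells had 1 member lower in YAP7d than in WT of 15 tested, with 1.90% of all genes lower, and 13 of 15 were below 0 with a median of -0.51, which was -1.03 without WT replicate 2. That member, Slfn8 (chr11:83002125-83020810), had 74.8 and 71.8 CPM in WT, 31.0, 27.0, 96.3 and 33.8 CPM in YAP3d and 21.3, 31.8 and 19.0 CPM in YAP7d (log2 fold change -1.57, SE 0.442, adjusted p 0.0397). The call was lost whichever WT or YAP7d library was left out (5 of the 9 fits that leave out 1 library), and stayed only where a YAP3d library was. It was also lost with DESeq2, without the filter on low counts or with a term for the libraries high in Gm10709. In this class the stress and dissociation genes summed to 7451 and 9542 CPM in WT and 2969 to 3937 CPM in YAP7d, and the proliferation genes to 2309 and 5700 CPM in WT and 8678 to 9760 CPM in YAP7d. Cluster 5 held 51 of 113 WT and 230 of 262 YAP7d cells, and cluster 0 the rest. The part of these shifts was not tested. The summed level of all members was 19.3 and 17.0 per 10000 UMIs in WT, 14.6, 16.1, 12.4 and 12.2 in YAP3d and 12.95, 12.5 and 9.40 in YAP7d. Against YAP3d 0 members were called, where 11.0% of all genes were called in either direction, and 0 were at 3 days (0% of all genes). Ifng itself, the type II interferon that these cells make, was at 504.9 and 492.3 CPM in WT and 464.9, 267.9 and 221.9 CPM in YAP7d in this class and was not called.

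In the other classes the fits called 0 members. For YAP7d against WT this held for 32 members tested in monocyte-like cells (0.145% of all genes were called), 16 in conventional-dendritic-like cells (0%), 26 in T-cell-like cells (0.135%) and 6 in B-cell-like cells (0.0445%). At an unadjusted p under 0.05 these had 1, 2, 0 and 0 members (7.56%, 7.83%, 8.91% and 3.96% of all genes), and DESeq2 called 0, 1, 0 and 0. For YAP7d against YAP3d the counts were again 0, with 0%, 0.0809%, 2.12% and 0% of all genes called, and 1, 2, 4 and 0 members at an unadjusted p under 0.05 (4.02%, 8.66%, 14.8% and 6.86% of all genes). At 3 days 0 members and 0% of all genes were called in each of them. Medians of the members' log2 fold changes for YAP7d against WT were 0.28 in conventional-dendritic-like cells, 0.0083 in T-cell-like cells, -0.46 for the monocyte-like and -0.13 for the B-cell-like class. Each of these medians changed sign when 1 library was left out. Without WT replicate 2 they were 0.87, -0.31, 0.26 and 1.004 in the same order, and without YAP7d replicate 1 they were -0.31, -0.22, -0.97 and -0.52. Isg15 in monocyte-like cells was at 621.4 and 629.0 CPM in WT, 389.4 and 200.7 CPM in the 2 YAP3d libraries that had enough cells and 379.5, 58.0 and 82.6 CPM in YAP7d (log2 fold change -1.82, adjusted p 0.686). Every YAP7d library lay below both WT libraries, and the YAP7d and YAP3d libraries overlapped. Monocyte-like Ifi27l2a was at 3084 and 3945 CPM in WT and at 5132, 1987 and 2972 CPM in YAP7d.

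Whether the members' change in endothelial-like cells differed from that in other classes was tested with the interaction of class and group for YAP7d against WT. The number of members whose log2 fold change was lower in endothelial-like cells was 6 of 31 against conventional-dendritic-like cells (0.788% of all genes), 5 of 32 against T-cell-like cells (0.542%), 2 of 34 against monocyte-like cells (0.901%) and 1 of 26 against B-cell-like cells (1.01%). It was 0 of 34 against macrophage-like cells (0.157%) and 0 of 28 against NK/ILC1-like cells (0.236%), with median differences of -0.30 and -0.34. At an unadjusted p under 0.05 these last had 9 and 5 members in either direction (9.14% and 10.8% of all genes). Isg20 differed by -3.04 (SE 0.854, adjusted p 0.0450) from conventional-dendritic-like cells and by -2.93 (SE 0.594, adjusted p 0.00339) from T-cell-like cells. The 6 included Isg15, which like Rtp4 had not been called within endothelial-like cells, and such a difference does not show a fall there. Rtp4 differed by -2.62 (adjusted p 0.000632) from conventional-dendritic-like and by -1.25 (adjusted p 0.0221) from monocyte-like cells. Without WT replicate 2 the counts against conventional-dendritic-like, T-cell-like, monocyte-like and B-cell-like cells were 0. The count against conventional-dendritic-like cells was 3 without WT replicate 1 and 1 without YAP7d replicate 1, and that against monocyte-like cells was 1 without WT replicate 1. The 1 member against B-cell-like cells was also lost without WT replicate 1, YAP3d replicate 4 or YAP7d replicate 3.

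Hepatocyte-like cells, in which YAP was to be induced, were few, with 3 cells in WT, and could be compared between 3 YAP3d libraries (11 to 18 cells) and the 3 YAP7d libraries (11 to 28 cells). This comparison was chosen after the data were seen. Of its YAP3d libraries, replicates 3 and 4 were low in Gm10709, while all YAP7d libraries were high. The summed level was 10.7, 8.65 and 5.16 member UMIs per 10000 UMIs in YAP3d and 20.8, 15.4 and 20.8 in YAP7d, so the groups did not overlap. Of 4 members that passed the filter 0 were called, with 2.63% of all genes called, and 2 had an unadjusted p under 0.05 (18.7% of all genes). Isg15 had 93.9, 221.9 and 9.56 CPM in YAP3d and 493.7, 206.1 and 379.9 CPM in YAP7d (log2 fold change 2.003, SE 0.730, adjusted p 0.190). Bst2 had 456.2, 110.9 and 181.6 CPM in YAP3d and 567.0, 364.7 and 697.8 CPM in YAP7d (log2 fold change 1.08, SE 0.448, adjusted p 0.236). Ifit1 was under the filter, with 1, 0 and 0 UMIs in YAP3d and 25, 26 and 10 in YAP7d, and without the filter 4 of 32 members (Ifit1, Isg15, Bst2 and Irf7) were higher, with 0.852% of all genes higher. The summed macrophage markers were at 59.1 to 210.3 CPM in YAP3d and 273.7 to 784.9 CPM in YAP7d in these cells, and cholangiocyte markers at 976.3 to 2265 and 3092 to 5636 CPM. Their part in the result was not tested.

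Over all cells of a library the picture also carries the make-up of the preparation, in which fewer cells of a type and less RNA per cell cannot be told apart. Irf7 (chr7:141263183-141266499) had 86.6 and 173.1 CPM in WT, 83.0, 153.6, 95.7 and 93.3 CPM in YAP3d and 326.0, 264.9 and 261.9 CPM in YAP7d, above every other library. It rose by 1.27 on the log2 scale against WT (adjusted p 0.0307) and by 1.56 against YAP3d (adjusted p 0.00832). Macrophage-like and monocyte-like cells, where Irf7 was high, together made up 7.87% and 9.04% of the cells in WT, 6.41%, 32.6%, 8.53% and 6.19% in YAP3d and 43.4%, 52.9% and 57.7% in YAP7d. The part of these shares in the change of Irf7 was not tested. Ifi44 (chr3:151730922-151749910) had 35.5 and 40.5 CPM in WT, 19.4, 11.9, 24.1 and 17.7 CPM in YAP3d and 21.2, 9.61 and 5.79 CPM in YAP7d (log2 fold change -1.55, adjusted p 0.0302). These were the 2 of 34 members called for YAP7d against WT, with 10.9% of all 12071 genes lower and 7.08% higher. Against YAP3d the 3 called members, all higher, were Irf7, Dhx58 (1.19, adjusted p 0.0430) and Oasl1 (1.23, adjusted p 0.0476), with 6.69% of all genes higher, and at 3 days 0 were called (0% of all genes). When libraries high in Gm10709 had a term of their own, 0 members were called in either comparison. For YAP7d against WT 0 were called without WT replicate 1, YAP7d replicate 2 or YAP7d replicate 3, while Irf7 against YAP3d stayed called whichever library was left out.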

How the data were processed

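Per the submitters' processing notes and the study's methods, the authors aligned reads of 3′ single-cell libraries to mm10 with Cell Ranger, analysed them with Seurat 2 and deposited raw UMI counts per gene and cell. From these counts, cells with at least 200 genes were clustered with scanpy 1.11.5 on 2408 variable genes that held 0 members (30 components, Leiden resolution 1) and named from 185 markers. A fibroblast-marker cluster of 119 cells held endothelial cells of YAP7d and was clustered again, into 22 fibroblast-like and 97 endothelial-like cells (cluster 23). This step, and the comparison of its markers with cells of other classes only, was chosen after the clusters were seen. Scrublet called 60 doublets (0.704%), which were kept. UMI counts were summed per library and class (at least 10 cells) and fitted with edgeR 4.0.16 in R 4.3.3 (TMM, filterByExpr, robust quasi-likelihood F test, 3 groups in 1 fit), with Benjamini-Hochberg adjustment over all genes of a class and a threshold of 0.05. SE is the log2 fold change over the root of F. The script was tested on simulated data. A class was tested where each group had 2 libraries or more, except that hepatocyte-like cells were fitted for YAP7d and YAP3d alone. The tests of differences between classes added a library block. DESeq2 1.42.0, other normalization, filters and cell choices and each library left out were tried as alternatives.

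The members and the gene lists were chosen with earlier results of these data known. Named with values were members called in a class (at most the 8 of smallest adjusted p) and Irf7, Stat2, Irf9, Usp18, Isg15, Ifit3, Oasl2, Mx1, Bst2, Ifi27l2a, Rtp4 and Zbp1, in at most 3 classes each. Of the other lists, called genes of smallest adjusted p were named, with Ifnar1, Ifnar2, Ifng and the ligands added after their values were seen. The labels give 1 library per sample and do not say whether mice shared a litter or a day, and p-values measure the spread between these libraries. Same-numbered libraries did not deviate together in every pair (correlations from -0.43 to 0.31 over classes). Those numbered 1 mostly did, with 0.18 to 0.31 in B-cell-like cells, though YAP3d and YAP7d had -0.15 in conventional-dendritic-like cells. The 2 WT libraries mirror each other around their group mean, so their correlations are not separate. Whether the numbers pair the libraries was thus not settled. Positions and promoters are those of RefSeq on GRCm38.p6, the assembly of mm10.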

Additional observations from a re-analysis of the deposited data

Results flagged for a closer look

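2 values stood apart from the other libraries of their group by Dixon's test at 95%, of 34 groups of 4 libraries tested, and chance alone flags about 1 in 20. Over all cells, YAP3d replicate 2 held 42.7 member UMIs per 10000 UMIs, where the other YAP3d libraries held 24.1 to 26.7. Macrophage-like and monocyte-like cells were 32.6% of its cells, against 6.19% to 8.53% in the other YAP3d libraries. The part of this share was not tested. In NK/ILC1-like cells Slfn8 was at 96.3 CPM in YAP3d replicate 3, a library with 19 such cells, and at 27.0 to 33.8 CPM in the other three.

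The change of members between YAP7d and WT differed between cell classes by the test of the difference itself. It was lower in endothelial-like than in monocyte-like cells for 2 members (Irf9 and Rtp4), than in conventional-dendritic-like cells for 6 (Rtp4, Isg15, Ifit3, Oasl2, Parp14 and Isg20), than in T-cell-like cells for 5 (Ifit3, Isg20, Oasl2, Parp14 and Rtp4) and than in B-cell-like cells for 1 (Isg20). Each of these counts was 0 without WT replicate 2.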

How the results depend on the processing

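Counts of members called for YAP7d against WT moved as follows, with the range over leaving out each library in turn. In endothelial-like cells the 15 ran from 6 to 17, and became 9 with the replicate block and 2 with the Gm10709 term (this term, the fits without the low-Gm10709 libraries and the hepatocyte-like fit were chosen after seeing the data). In macrophage-like cells the 2 ran from 0 to 6. They became 5 with the replicate block, with only 2 groups or without the 2 YAP3d libraries low in Gm10709, 0 with the Gm10709 term, and 1 with DESeq2, at least 20 cells, the stricter cell filter, Leiden resolution 0.6 or Kupffer-marked clusters. In NK/ILC1-like cells the 1 ran from 0 to 1 and was 0 with DESeq2, without the filter on low counts or with the Gm10709 term. In monocyte-like cells the 0 ran from 0 to 1 and was 1 without the filter, with the replicate block, with only 2 groups or without the low-Gm10709 libraries. In conventional-dendritic-like cells DESeq2 gave 1 and no filter 2. Over all cells the 2 ran from 0 to 6, with 6 by DESeq2, 1 with the block, 4 with only 2 groups and 0 with the term. For YAP7d against YAP3d the endothelial-like 5 ran from 2 to 9, with 11 without the filter and 8 with only 2 groups. The 3 over all cells ran from 1 to 8, with 6 by DESeq2, 1 with the block or only 2 groups, and 0 with the term or without the low-Gm10709 libraries. Conventional-dendritic-like cells had 2 without the filter, T-cell-like cells 0 to 1, with 1 by DESeq2 and 2 without the filter, NK/ILC1-like cells 2 with the block and 1 with only 2 groups, the stricter filter or Leiden 0.6, and hepatocyte-like cells 0 to 2, with 4 without the filter. At 3 days endothelial-like cells had 1 without the filter.

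Median log2 fold changes of the members for YAP7d against WT ran, with each library left out, from -1.31 to -0.86 in endothelial-like, -1.09 to -0.081 in macrophage-like, -0.97 to 0.26 in monocyte-like, -0.31 to 0.87 in conventional-dendritic-like, -1.03 to -0.43 in NK/ILC1-like and -0.52 to 1.004 in B-cell-like cells. With the Gm10709 term they were -1.53 in endothelial-like, -0.25 in macrophage-like and -0.50 in T-cell-like cells. For YAP3d against WT they ran from -0.89 to -0.011 in macrophage-like, -0.54 to 0.37 in monocyte-like, -0.43 to 0.48 in B-cell-like and -0.48 to -0.11 in endothelial-like cells. For YAP7d against YAP3d they ran from -0.93 to -0.53 in endothelial-like, -0.48 to 0.30 in monocyte-like, -0.57 to 0.35 in conventional-dendritic-like and 1.06 to 1.89 in hepatocyte-like cells and from -0.065 to 0.36 over all cells, with 0.15 in macrophage-like cells under the term and 1.40 (no filter) and 1.53 (without the low-Gm10709 libraries) in hepatocyte-like cells. Members lower in endothelial-like than in macrophage-like cells ran from 0 to 1 (1 without the filter), than in monocyte-like from 0 to 3, conventional-dendritic-like 0 to 9, T-cell-like 0 to 7, NK/ILC1-like 0 to 1 and B-cell-like cells 0 to 1 (0 without the filter).

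Single members turned sign. With each library left out, log2 fold changes for YAP7d against WT in macrophage-like cells ran from -0.94 to 0.55 for Isg15, -0.73 to 0.25 for Irf7, -0.35 to 0.23 for Bst2 and -0.16 to 0.54 for Ifi27l2a, and in endothelial-like cells from -0.68 to 0.36 for Irf7 and -0.094 to 0.80 for Zbp1. Bst2 was at 0.051 without the filter in macrophage-like cells, and with the Gm10709 term Isg15 was at 0.17 and Irf7 at 0.68 there and Zbp1 at -0.46 and Stat2 at 1.23 in endothelial-like cells. None of these had been called. The cause of these moves was not tested. The replicate block changed no other count by more than 1.5 times, and whether the numbers pair the libraries is not known. Without cluster 23 the YAP7d libraries kept 8, 7 and 6 endothelial-like cells, under the minimum of 10 chosen here, so no fit was run. Depth limits the low members most, since a count of 0 in YAP7d endothelial-like cells allows 3.34 to 13.5 CPM.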

Other observations

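In neutrophil-like cells WT replicate 2 (24 cells) had Ifi27l2a at 7443 CPM, where the other 3 libraries with at least 10 cells had 781.3 to 1742 CPM, and Isg15 at 1563 CPM. Over all cells Ifng was at 212.4 and 99.9 CPM in WT, at 161.4, 56.8, 133.8 and 51.1 CPM in YAP3d and at 72.5, 26.4 and 33.9 CPM in YAP7d. Bst2 in plasmacytoid-dendritic-like cells stayed between 3598 and 4247 CPM in the 4 libraries with at least 10 such cells. These values belong to no comparison above.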
